A study of Homo sapiens with 6 samples.

Results

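Integrins are receptors that join the matrix outside the cell to the actin or keratin filaments inside it. Each receptor is made of 1 α and 1 β subunit, and the pair sets the ligand. The α subunits of ITGA2 (collagen), ITGA3 and ITGA6 (laminins) and ITGA5 (fibronectin) pair with the β1 subunit of ITGB1. The αv subunit of ITGAV pairs, among the β subunits described here, with β1, β3, β5 or β8. It binds ligands with an Arg-Gly-Asp motif, such as vitronectin, fibronectin and latent TGF-β. Only the α6 subunit pairs with β4, and that receptor anchors epithelial cells to laminin at hemidesmosomes. Breast carcinoma cells use these receptors to attach, to migrate and to signal through focal adhesion kinase. The 10 subunit genes described here, ITGAV, ITGA2, ITGA3, ITGA5, ITGA6, ITGB1, ITGB3, ITGB4, ITGB5 and ITGB8, were taken by gene symbol from a table of 60605 genes.

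The mRNA was measured by poly(A) RNA sequencing in MDA-MB-231 cells, a human triple-negative breast cancer line, to find genes whose level differs when the pseudouridine synthase PUS1 is knocked down. Both groups carried a lentiviral hairpin: 3 libraries came from cells with a control hairpin (shControl) and 3 from cells with a hairpin against PUS1 (shPUS1). The study's methods give a puromycin-resistant pLKO.1 vector and puromycin selection, and no untransduced cells are among the libraries. The deposited column names of the shPUS1 libraries carry a knockdown number 2, but which listed hairpin that is was not stated in the sources used here, and neither was whether the replicates, labelled biological, came from separate selections, so that p-values measure the spread between these libraries.

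The 10 genes lie on 7 chromosomes. In the coordinates of the deposited table, ITGB8 (ENSG00000105855) is on chromosome 7 from 20330702 to 20415754, plus strand. The other genes of αv partners are ITGB3 (ENSG00000259207, chromosome 17 from 47253827 to 47313743, plus strand) and ITGB5 (ENSG00000082781, chromosome 3 from 124761948 to 124901418, minus strand). ITGAV (ENSG00000138448, from 186590056 to 186680901) and ITGA6 (ENSG00000091409, from 172427354 to 172506459) are both on the plus strand of chromosome 2. ITGA2 (ENSG00000164171) is on chromosome 5 from 52989340 to 53094779, plus strand, and ITGA5 (ENSG00000161638) on chromosome 12 from 54395261 to 54419266, minus strand. ITGA3 (ENSG00000005884, from 50055968 to 50090481) and ITGB4 (ENSG00000132470, from 75721328 to 75757818) are on the plus strand of chromosome 17, and ITGB1 (ENSG00000150093) is on chromosome 10 from 32887273 to 33005792, minus strand. The values are sums over whole genes, exons and UTRs together.

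The upstream sequences below belong to the 5 genes with an unadjusted p under 0.05, and show where common promoter motifs stand near their RefSeq starts. They are RefSeq sequences of GRCh38.p14, written 5′ to 3′ on the strand of the gene, and hold only bases outside annotated exons. Capitals mark a GC box (GGGCGG, or CCGCCC on the other strand), a CCAAT box or a TATA box (TATAAA, or TTTATA on the other strand). The windows are chr7:20330650-20330701 for ITGB8 (plus strand, ending 198 bases before the RefSeq start), chr5:52989206-52989325 for ITGA2 (plus strand, 26 bases before it), chr2:186589936-186590055 for ITGAV and chr2:172427216-172427335 for ITGA6 (both plus strand, up to the start), and chr10:32958233-32958352 for ITGB1 (minus strand, 2 bases before it). For ITGB1 the RefSeq start, 32958230, lies inside the gene of the deposited coordinates, which begins at 33005792 on the minus strand.
ITGB8: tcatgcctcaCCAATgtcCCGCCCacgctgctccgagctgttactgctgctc
ITGA2: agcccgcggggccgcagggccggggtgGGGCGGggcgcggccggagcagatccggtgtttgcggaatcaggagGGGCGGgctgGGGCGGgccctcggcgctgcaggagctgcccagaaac
ITGAV: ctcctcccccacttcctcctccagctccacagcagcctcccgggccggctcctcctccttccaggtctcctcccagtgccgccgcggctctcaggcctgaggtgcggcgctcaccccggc
ITGA6: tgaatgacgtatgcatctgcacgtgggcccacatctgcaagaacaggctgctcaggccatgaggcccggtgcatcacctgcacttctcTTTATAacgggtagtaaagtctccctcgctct
ITGB1: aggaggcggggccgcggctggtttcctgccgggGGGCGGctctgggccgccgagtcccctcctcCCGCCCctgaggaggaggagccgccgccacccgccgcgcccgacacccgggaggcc

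Both strands of the whole 250 bases upstream were searched for these motifs and for the AP-1 motif TGANTCA in the 7 genes with a usable sequence (these 5, ITGA5 and ITGB5). The GC box was found 4 times for ITGA2, 3 times for ITGB1, 2 times each for ITGB8 and ITGB5, once for ITGA5 and 0 times for ITGAV and ITGA6. A GC box was present in 42.6% of 35116 RefSeq promoters. Of the 7 genes, ITGA6 alone had a TATA box (in 10.7% of all promoters) and ITGB8 alone a CCAAT box (in 11240 of the 35116). The AP-1 motif, present in 6.57% of promoters, was found in 0 of the 7. The G and C content of the 250 bases ran from 50.8% for ITGA6 to 78.4% for ITGB1.

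The depth per library ranged from 14241505 to 19625998 estimated counts, and 14748 genes had enough counts to be tested. PUS1 was checked first. It had 14.5, 27.5 and 12.1 TMM-scaled CPM in shControl and 6.57, 5.47 and 5.37 in shPUS1, with a log2 fold change of -1.64 (SE 0.32, adjusted p = 0.0462 by edgeR's quasi-likelihood test), and without shControl replicate 1 or any 1 shPUS1 library the adjusted p was 0.0905 to 0.253. The shControl replicate 2 library stood apart from its group: its log2 CPM correlated with the other shControl libraries at r = 0.9505 and 0.9521 across genes, against 0.981 between those and 0.9872 to 0.9906 among the shPUS1 libraries. Markers of the labelled line were present, with summed FPKM (fragments scaled by exonic length and library total) of VIM, CD44, EGFR, AXL and ZEB1 of 754 to 877 in shControl and 548 to 587 in shPUS1. Of the markers taken as low in this line, CDH1, the epithelial cadherin, reached at most 0.18 FPKM, ESR1 0.04 and PGR 0.01. The others were higher, with ERBB2 at 4.93 to 6.91 FPKM, EPCAM, also epithelial, at 2.21 to 3.12 and GATA3 at 1.55 to 2.16.

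Of the 10 subunits, 1 passed the adjusted p of 0.05 and 9 did not. ITGB8 rose in shPUS1, 0 subunits fell, and over all genes 2.58% passed in either direction, 1.74% as higher and 0.841% as lower. When a log2 fold change of 1 or more in size was required as well, ITGB8 again passed, beside 1.37% of all genes, 0.888% as higher and 0.481% as lower. With no filter on low counts 3 subunits passed as higher (ITGB8, ITGA2 and ITGB3), in a fit that called 4.75% of all genes. In 7 of the 10 subunits, 5 higher and 2 lower in shPUS1, the 3 libraries of a group did not overlap those of the other, against 36.1% of all genes tested. At an unadjusted p under 0.05 stood 5 subunits (ITGB8, ITGA2 and ITGAV higher, ITGA6 and ITGB1 lower), against 25.5% of all genes. The median log2 fold change was 0.205 over the 10 subunits and -0.0343 over all genes. With 3 libraries against 3, an exact two-sided permutation test of a single gene cannot give less than p = 0.1. Over all genes the split of the calls moved with the scaling, since 67.4% of the calls were higher in shPUS1 as scaled here, 55.4% with library totals alone and 47.8% with upper quartile scaling.

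**Figure D1:**
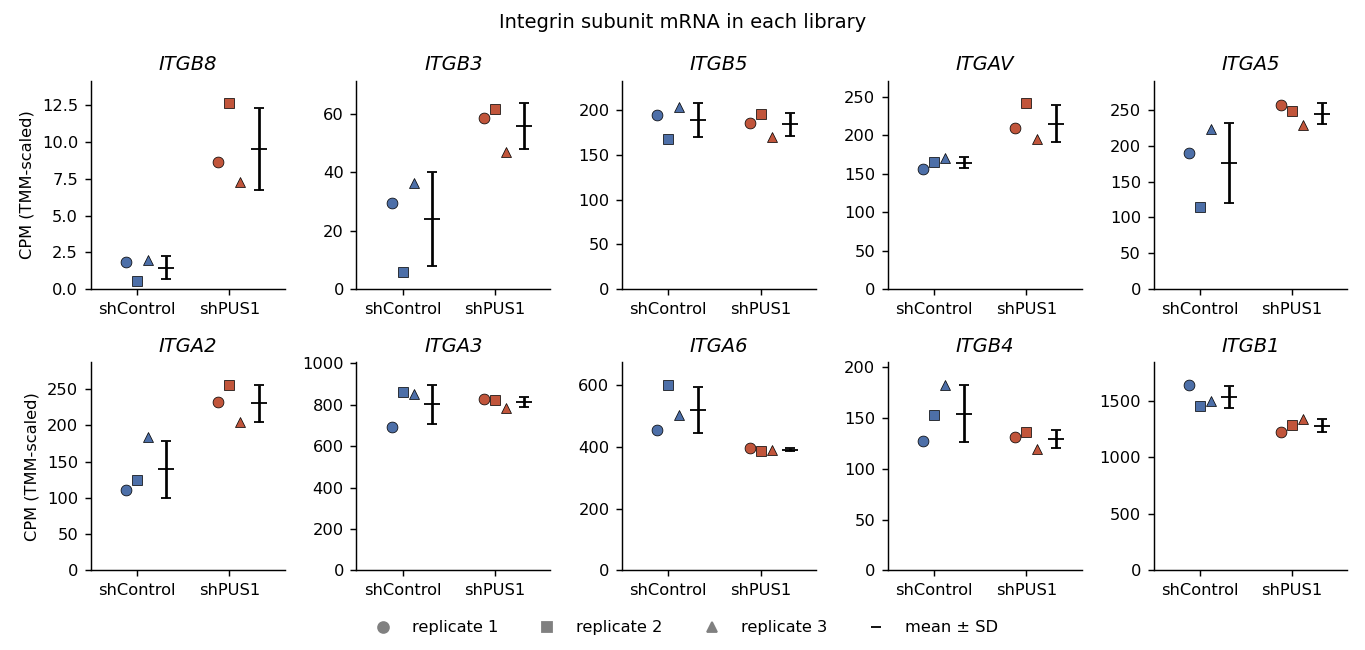
TMM-scaled CPM of the 10 integrin subunit genes (y axis, starting at 0, a scale for each gene) in the 3 shControl (blue) and 3 shPUS1 (red) libraries, with bars for the mean ± SD. The 3 shPUS1 points of ITGB8, ITGB3, ITGAV, ITGA5 and ITGA2 lie above all shControl points, those of ITGA6 and ITGB1 lie below, and those of ITGB5, ITGA3 and ITGB4 overlap.

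ITGB8 encodes β8, which pairs with αv alone and as αvβ8 frees TGF-β from its latent complex. It was measured at 1.83, 0.524 and 1.98 CPM in shControl and at 8.62, 12.6 and 7.26 in shPUS1, from 10 to 29 estimated counts in each shControl library and at least 123 in each shPUS1 library. Every shPUS1 library was above every shControl library. The mean was 1.44 ± 0.80 CPM in shControl and 9.51 ± 2.80 in shPUS1 (SD, n = 3), a ratio of 6.58, and the log2 fold change was 2.74 (SE 0.47, 95% interval 1.66 to 3.82, adjusted p = 0.0371). ITGB8 ranked 160 by p among the 14748 genes. Its level remained the lowest of the 10 subunits in both groups, at 0.0933 ± 0.0551 FPKM in shControl and 0.62 ± 0.19 in shPUS1. The direction held with each library left out, with log2 fold changes of 2.31 to 3.03, while the adjusted p was 0.0905 without shControl replicate 1 and 0.163 to 0.222 without any 1 shPUS1 library. In bulk RNA a larger share of cells that express ITGB8 and more ITGB8 mRNA per cell cannot be told apart.

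Of the genes that pass 5 CPM on average, the 3 protein-coding genes whose log2 CPM followed ITGB8 most closely over the 6 libraries were TMEM87B (Pearson r = 0.9996), EDNRB, an endothelin receptor (r = 0.997), and TBC1D9 (r = 0.997). There were 10532 such candidates, 43 of them with r over 0.99, and the 6 points share the split between groups and the low values of shControl replicate 2. EDNRB and TBC1D9 rose, with log2 fold changes of 1.69 (adjusted p = 0.042) and 0.94 (adjusted p = 0.0371). Chosen for following ITGB8, they are no separate support for it, and like ITGB8 both lost the call without shControl replicate 1 or any 1 shPUS1 library (adjusted p of 0.0872 to 0.244). EDNRB also lost it without shControl replicate 3 (0.0517) and with library totals alone (0.0501), among others. Of 18 alternative fits, EDNRB passed in 10 and TBC1D9 in 13. TMEM87B missed the threshold, at 0.70 (adjusted p = 0.0526).

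ITGB3 encodes β3, which with αv forms the vitronectin and osteopontin receptor. Its values were 29.6, 5.77 and 36.4 CPM in shControl and 58.8, 61.8 and 47.0 in shPUS1. The shPUS1 libraries were all higher, and shControl replicate 2 was far below its group. The means were 23.9 ± 16.1 and 55.9 ± 7.81 CPM (SD, n = 3), with a log2 fold change of 1.23 (SE 0.54, 95% interval -0.02 to 2.48, adjusted p = 0.203). It passed with shControl replicate 2 left out (0.75, adjusted p = 0.0112), in a fit that called 18.6% of all genes. Of the 100-base stretches in the ITGB3 transcripts, 50.2% also occur in another gene of the same strand, ENSG00000259753, whose estimated counts were 0, 0 and 0.12 in shControl and 12.7, 16.8 and 13.7 in shPUS1. This overlapping gene, named after its values were seen, was itself called higher (adjusted p = 0.0341). It met the filter on low counts through its shPUS1 libraries alone, so the call is no separate support for ITGB3. The sum of both genes gave 1.25 on the log2 scale (adjusted p = 0.197).

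ITGB5 encodes β5, the other vitronectin-binding partner of αv. Its values of 195, 168 and 204 CPM in shControl and 186, 196 and 170.1 in shPUS1 overlapped. The log2 fold change was -0.04 (SE 0.13, 95% interval -0.33 to 0.25, adjusted p = 0.872), and its sign turned without shControl replicate 3 or without shPUS1 replicate 3 (0.01 and 0.02). The interval holds changes of either sign.

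ITGAV, the α subunit that β3, β5 and β8 share, was measured at 156, 165 and 171 CPM in shControl and at 209.7, 242 and 195 in shPUS1. The groups did not overlap, and the shControl values were close together. The means were 164 ± 7.23 and 216 ± 24.002 CPM (SD, n = 3), and the log2 fold change was 0.39 (SE 0.12, 95% interval 0.10 to 0.68, adjusted p = 0.112). With shControl replicate 2 left out it was again 0.39 and passed (adjusted p = 0.0437). With DESeq2's Wald test, which called 13.0% of all genes, it was 0.40 with an adjusted p of 0.0428. In FPKM, ITGAV exceeded ITGB8 in every library, by 20.1 ± 1.13 against 0.0933 ± 0.0551 in shControl and 26.0 ± 3.01 against 0.62 ± 0.19 in shPUS1 (SD, n = 3).

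ITGA5 pairs with β1 as the main fibronectin receptor. The libraries gave 191, 115 and 224 CPM in shControl and 258, 248 and 229 in shPUS1. All shPUS1 values were higher, by little for shControl replicate 3 and by most for replicate 2. The log2 fold change of 0.47 (SE 0.23, 95% interval -0.06 to 1.00) did not pass (adjusted p = 0.237), and it was 0.23 without shControl replicate 2. FN1, fibronectin itself, differed by 0.08 on the log2 scale (adjusted p = 0.805), and its groups overlapped.

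ITGA2 encodes the α2 subunit of the collagen receptor α2β1. It had 110.5, 124 and 184 CPM in shControl and 232, 255 and 204 in shPUS1. The groups did not overlap. With means of 139.7 ± 39.2 and 230.5 ± 25.5 CPM (SD, n = 3), the log2 fold change was 0.72 (SE 0.20, 95% interval 0.25 to 1.19, adjusted p = 0.0897). It passed without shControl replicate 3 (0.96, adjusted p = 0.0449, in a fit that called 3.14% of all genes) and with DESeq2 (adjusted p = 0.016). ITGA1, the α subunit of the other collagen receptor and outside the 10, lies on the same chromosome and had 81.2, 54.2 and 109.8 CPM in shControl and 141, 168 and 139 in shPUS1. Those groups did not overlap either, and the log2 fold change was 0.87 (SE 0.24, adjusted p = 0.0865). ITGA1 passed with DESeq2, with no filter on low counts and without shControl replicate 2 or 3 (adjusted p of 0.0113 to 0.0489). PELO lies on the same strand within ITGA1, and 4.88% of the ITGA1 stretches occur in other genes, PELO among them. How reads were split between these genes was not tested.

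ITGA3, the α3 subunit of the receptor for laminin-332, was measured at 695, 864 and 850.1 CPM in shControl and at 829.8, 825 and 785 in shPUS1. The shPUS1 values lay inside the shControl range. The log2 fold change was 0.02 (SE 0.12, 95% interval -0.27 to 0.31, adjusted p = 0.937). Its sign turned with library totals alone (-0.0038), with upper quartile scaling (-0.04) and without shControl replicate 1 (-0.08) or shPUS1 replicate 1 (-0.0016).

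ITGA6 encodes α6, which binds laminins with β1 or β4. Its values were 454, 600.3 and 504 CPM in shControl and 396, 385 and 391 in shPUS1. The shPUS1 libraries were all lower and nearly equal, while shControl replicate 2 was the highest of all. The means were 519 ± 74.4 and 391 ± 5.66 CPM (SD, n = 3), with a log2 fold change of -0.41 (SE 0.13, 95% interval -0.72 to -0.11, adjusted p = 0.114). Without shControl replicate 2 it was smaller, at -0.30, and passed (adjusted p = 0.0457).

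ITGB4 encodes β4, the hemidesmosome partner of α6. It had 127, 153 and 183 CPM in shControl and 131, 137 and 119 in shPUS1, and the groups overlapped. The log2 fold change was -0.26 (SE 0.15, 95% interval -0.61 to 0.10, adjusted p = 0.329). Without shControl replicate 3 it was -0.13, and without shControl replicate 1 -0.38. ITGB4 overlaps GALK1 on the other strand, which had 280 to 358 estimated counts against 1939 to 2919 for ITGB4, and whether counting used the strand is not stated.

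ITGB1, whose β1 subunit pairs with most of the α subunits above, gave 1640.1, 1451 and 1497 CPM in shControl and 1222, 1282 and 1335.5 in shPUS1. Every shPUS1 value was lower. The means were 1529.6 ± 98.5 and 1279.8 ± 56.8 CPM (SD, n = 3), and the log2 fold change was -0.26 (SE 0.11, 95% interval -0.51 to -0.0037, adjusted p = 0.191). Without shControl replicate 2 it was -0.30 with an adjusted p of 0.0453. Other genes share 7.72% of the ITGB1 stretches, and summing ITGB1 with its pseudogene ITGB1P1 left the log2 fold change at -0.26 (adjusted p = 0.19).

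**Figure D2:**
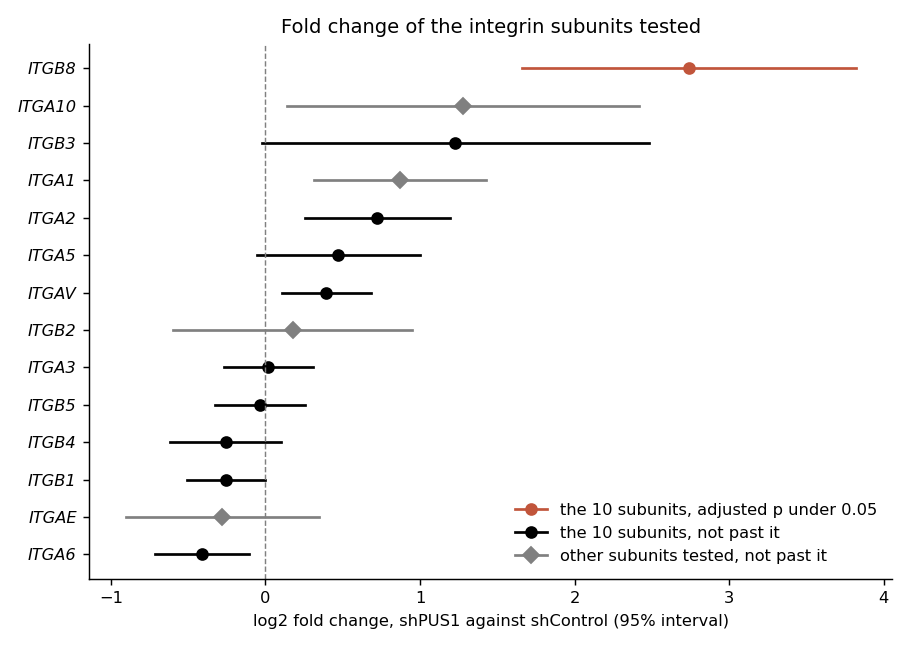
Log2 fold change of shPUS1 against shControl (x axis) with its 95% interval for the 14 integrin subunit genes tested, the 10 described as circles and 4 others as diamonds. ITGB8, in red, is the 1 gene past an adjusted p of 0.05, and the intervals of ITGA1, ITGA10, ITGA2 and ITGAV also lie above 0 while those of ITGA6 and ITGB1 lie below.

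The calls depended on the libraries used. Without shControl replicate 2, 5 of the 10 subunits passed, ITGB8, ITGB3 and ITGAV as higher and ITGA6 and ITGB1 as lower, beside 18.6% of all genes in that fit. Without shControl replicate 3, ITGB8 and ITGA2 passed, beside 3.14% of all genes, and with any 1 of the other libraries left out 0 passed. In those last fits 0 to 11 genes passed over the whole table. Measured by distance from the shPUS1 mean, the farthest shControl library was replicate 1 for 4 of the 10 subunits, replicate 2 for 4 and replicate 3 for 2.

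**Figure D3:**
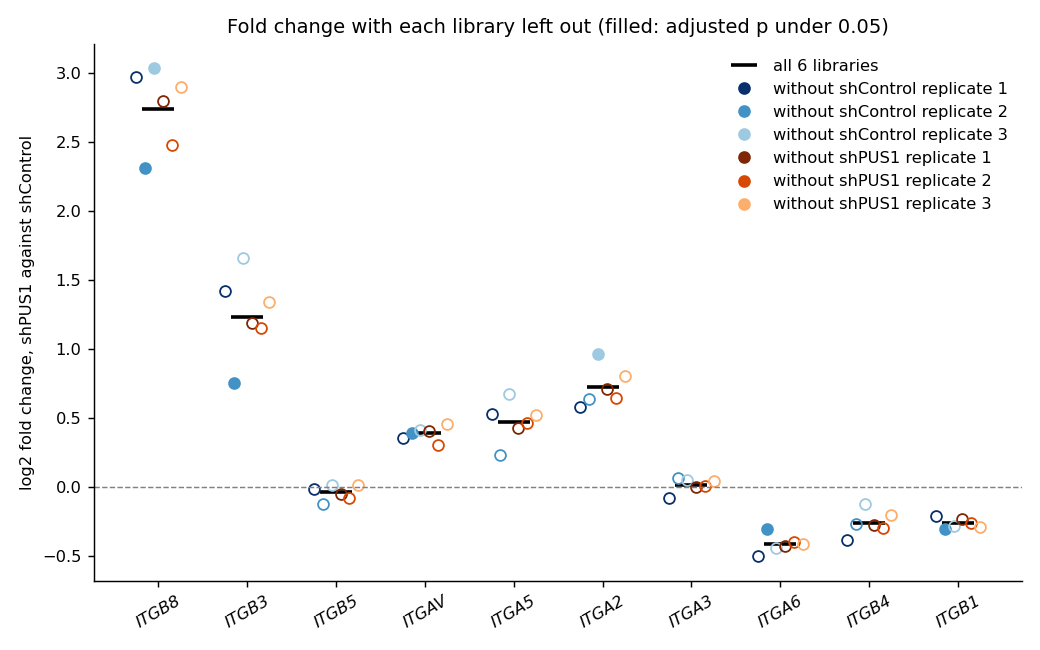
Log2 fold change of shPUS1 against shControl (y axis) for the 10 subunits with all 6 libraries (black lines) and with each library left out (circles, filled where the adjusted p was under 0.05). ITGB3 and ITGB8 are lowest without shControl replicate 2, at 0.75 and 2.31, and the other values of ITGB8 reach 3.03.

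The levels per length, in FPKM, set the subunits in a similar order in both groups. The length used is that of all exons of a gene, 14561 bases for ITGB1 and 15156 for ITGB8, against 6340 to 6761 for ITGB3, ITGB4 and ITGB5. The length of the transcripts expressed was not measured, so the order between genes is approximate. In shControl, ITGB1 was highest at 106 ± 8.92 FPKM (SD, n = 3 here and for the other levels), followed by ITGA3 at 82.4 ± 9.04 and ITGA6 at 78.1 ± 9.09, and the ranges of these last genes overlapped. ITGB5 (29.2 ± 3.76), ITGA5 (24.3 ± 8.27), ITGB4 (23.0 ± 4.45), ITGAV (20.1 ± 1.13) and ITGA2 (17.9 ± 5.38) came next, each overlapping its neighbour. ITGB3 (3.85 ± 2.64) and ITGB8 were separate from their neighbours. In shPUS1, ITGB1 at 87.1 ± 4.09 and ITGA3 at 82.2 ± 2.52 overlapped, and ITGA6 stood apart at 58.0 ± 0.515. ITGA5 (32.9 ± 1.93), ITGA2 (28.9 ± 3.31), ITGB5 (28.0 ± 2.06) and ITGAV (26.0 ± 3.01) overlapped in turn, and ITGB4 (18.9 ± 1.36), ITGB3 (8.74 ± 1.24) and ITGB8 were each separate.

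The makeup of the α subunit mRNA was described as shares of the summed FPKM of ITGA1, ITGA2, ITGA3, ITGA5, ITGA6 and ITGAV, with no test. The laminin-binding pair ITGA3 and ITGA6 made up 68.7%, 76.6% and 66.9% in shControl and 59.7%, 57.6% and 61.1% in shPUS1. The collagen-binding pair ITGA1 and ITGA2 made up 9.09%, 8.03% and 12.1% against 15.3%, 16.8% and 14.7%. ITGA5 and ITGAV, whose receptors bind Arg-Gly-Asp ligands, made up 22.2%, 15.4% and 21.1% against 24.1% to 25.6%. In each of these 3 shares the groups did not overlap, as was so for the CPM of 36.1% of all genes tested. The 3 shares make up 1 whole, so they are not separate results. The summed FPKM of ITGA3 and ITGA6 overlapped, at 141.4, 173.1 and 167.2 in shControl and 141.9, 141.3 and 137.3 in shPUS1. The summed FPKM of the other pairs did not overlap. Taken alone, ITGA6 was 33.6%, 38.7% and 31.1% against 24.6%, 23.4% and 25.8%, while ITGA3, at 35.1%, 37.9% and 35.8% against 35.1%, 34.2% and 35.3%, overlapped. The ratio of ITGB5 to ITGB3 was 6.39, 28.4 and 5.46 in shControl and 3.08, 3.08 and 3.52 in shPUS1, with the value of 28.4 in the library that stood apart. ITGB1 was 66.6%, 66.4% and 60.7% of the summed β subunit FPKM in shControl and 58.1%, 58.2% and 62.9% in shPUS1, and here the groups overlapped. The size of these shares depends on the exonic lengths used.

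**Figure D4:**
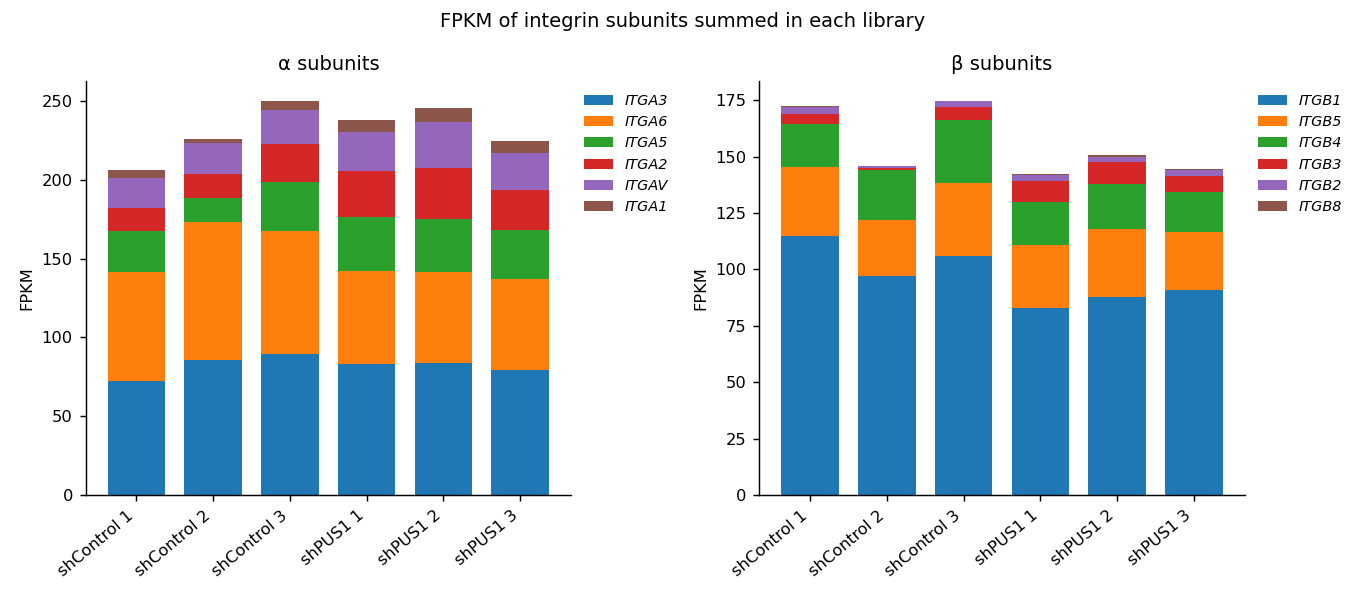
FPKM of the α subunit genes (left) and β subunit genes (right) summed in each of the 6 libraries, with a colour for each gene. ITGA3 and ITGA6 take 57.6% to 61.1% of the α sum in shPUS1 and 66.9% to 76.6% in shControl, and ITGB8 is too low to be seen at this scale.

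The other 16 integrin subunit genes were mostly silent in these cells. Only 4 had enough counts to be tested and 0 of them passed, beside 2.58% of all genes, while at an unadjusted p under 0.05 stood ITGA1 and ITGA10, beside 25.5% of all genes. ITGA10, a further collagen-binding subunit, was low, at 1.05, 0.262 and 0.954 CPM in shControl and 1.78, 1.97 and 1.65 in shPUS1, with a log2 fold change of 1.28 (adjusted p = 0.161). The leukocyte subunits ITGAE (-0.28, adjusted p = 0.535) and ITGB2 (0.17, adjusted p = 0.767) had overlapping groups, and the sign of both turned without shControl replicate 2 (0.06 and -0.16). ITGAL, ITGAD and ITGA8 had 0 counts in all 6 libraries, and ITGB6, another β subunit known to activate latent TGF-β, had at most 0.472 CPM.

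The lists of other integrin genes held 107 genes (these 16 subunits among them), of which 87 were tested, 3 passed as higher and 0 as lower, beside 1.74% and 0.841% of all genes. Their median log2 fold change was 0.0617. Among the 15 integrin activators and inhibitors, all tested, 1 passed. FERMT2, the kindlin that binds β subunit tails and activates them with talin, had 181, 162 and 171 CPM in shControl and 275, 266 and 297 in shPUS1. It rose with a log2 fold change of 0.71 (SE 0.11, adjusted p = 0.0341). TLN1, talin itself, was at 0.43 (adjusted p = 0.169), and the epithelial kindlin FERMT1, at 0.654, 3.77 and 1.16 CPM against 0.612, 0.438 and 0.354, had one of -1.99 (adjusted p = 0.128) and was at -0.94 without shControl replicate 2 (adjusted p = 0.202).

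Among the 26 ligands, 21 were tested and 2 passed. EDIL3, a secreted protein with an Arg-Gly-Asp motif that binds αvβ3 and αvβ5, had 79.5, 60.3 and 90.8 CPM in shControl and 155, 164 and 144 in shPUS1. It rose with a log2 fold change of 1.01 (SE 0.17, adjusted p = 0.0341). TGFB2 had 160.2, 86.6 and 181 CPM in shControl and 347, 359.7 and 348 in shPUS1, and rose by 1.30 on the log2 scale (SE 0.25, adjusted p = 0.046). That call ended with library totals alone (adjusted p = 0.0538), upper quartile scaling (0.0547) and limma on log2(FPKM + 0.1) (0.0541). The latency peptide of TGF-β2, unlike those of TGF-β1 and TGF-β3, is known to lack the Arg-Gly-Asp motif that αvβ8 binds. TGFB1 (0.30, adjusted p = 0.42) and TGFB3 (-0.31, adjusted p = 0.732) had overlapping groups.

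The 3 remaining lists had 0 genes past the adjusted p. Of 22 adaptors and kinases 20 were tested, with a median log2 fold change of 0.18, and TNS2, a tensin that links β tails to actin, had the smallest adjusted p (-0.84, adjusted p = 0.0624). All 13 membrane partners and hemidesmosome genes were tested (median -0.16), led by PLAUR, the urokinase receptor (-0.51, adjusted p = 0.0719). Of 15 trafficking genes 14 were tested (median 0.0019), led by DAB2, an adaptor for integrin endocytosis (0.77, adjusted p = 0.089). At an unadjusted p under 0.05 stood 4 adaptors as higher and 1 as lower, 1 partner as higher and 4 as lower, and 3 trafficking genes as higher and 1 as lower, beside 25.5% of all genes in either direction. DESeq2 called 2, 1 and 1 genes of these lists as higher and 1, 2 and 1 as lower, beside 13.0% of all genes. Without shControl replicate 2, 11 of the pathway genes passed as higher and 7 as lower, beside 18.6% of all genes in that fit. FERMT2, EDIL3 and TGFB2 lost their calls without shControl replicate 1 or any 1 shPUS1 library (adjusted p of 0.0859 to 0.244).

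**Figure D5:**
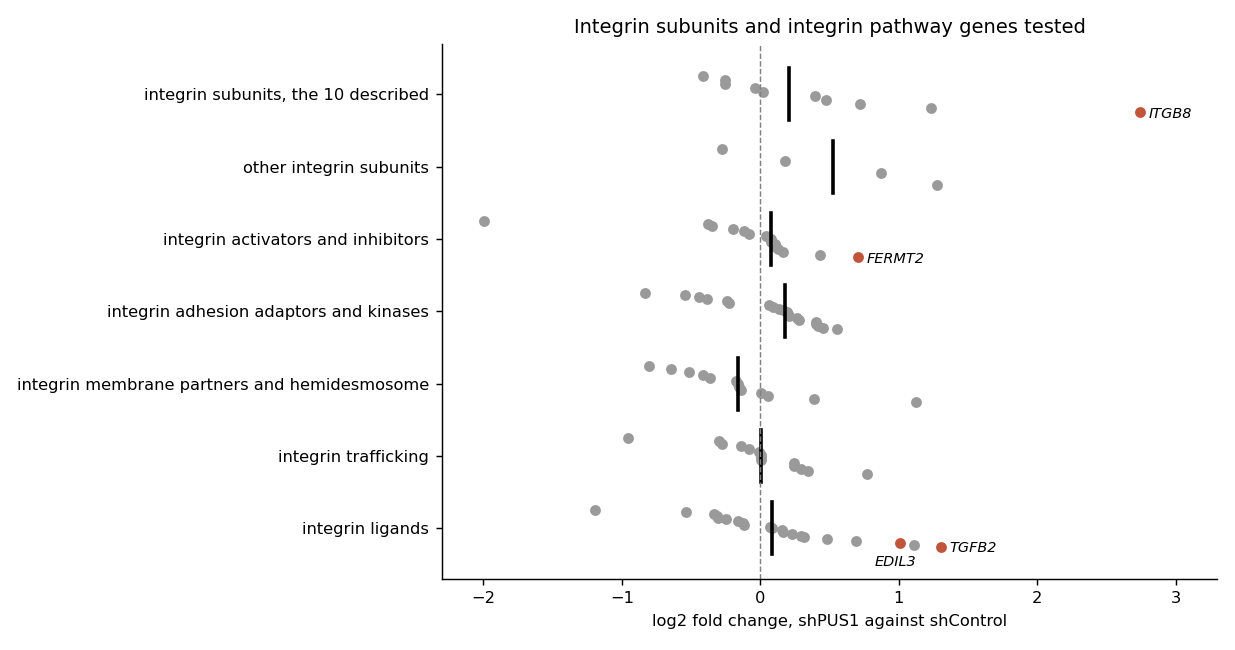
Log2 fold change of shPUS1 against shControl (x axis) for the integrin subunits and the integrin pathway genes tested, 1 point for each gene and 1 row for each list, with the median as a bar and genes past an adjusted p of 0.05 in red. ITGB8 at 2.74 lies farthest from 0, and the list medians lie between -0.16 and 0.52.

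Markers of other cell types were read beside these results. The summed FPKM of the fibroblast markers DCN, LUM, PDGFRA and PDGFRB was 1.40 to 5.88 in shControl and 8.45 to 10.1 in shPUS1. PDGFRB made up most of it, at 4.67, 1.32 and 5.63 FPKM in shControl and 7.56, 8.29 and 6.67 in shPUS1 (log2 fold change 1.00, adjusted p = 0.195). LUM, at 0.42, 0.06 and 0.21 FPKM against 1.27, 1.74 and 1.68, rose (log2 fold change 2.82, adjusted p = 0.0462), while DCN at up to 0.03 FPKM and PDGFRA at up to 0.09 were too low to be tested. LUM had 3 to 17 counts in each shControl library, and only through its shPUS1 libraries did it have enough counts to be tested. It lost the call without shControl replicate 1 or 3 or any 1 shPUS1 library (adjusted p of 0.0678 to 0.245). The leukocyte list summed to 38.3 to 45.2 FPKM against 30.1 to 34.1, most of it from CD68, with CD3E at 0 and PTPRC at most 0.02. The endothelial markers summed to at most 1.02 FPKM and the platelet markers to at most 1.46, with PF4 at 0. The part of any of these in the subunit values was not tested.

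In the pathway annotation of the deposited table all 10 subunits belong to focal adhesion, extracellular matrix-receptor interaction, PI3K-Akt signaling and regulation of the actin cytoskeleton. These terms were chosen for holding all 10, and focal adhesion and PI3K-Akt signaling are named by the study for these libraries, so they are no independent evidence. Of 222 focal adhesion genes tested, 8 passed as higher and 0 as lower, which is 3.6% beside the 2.58% of all genes. Of 68 matrix-receptor genes 3 passed as higher and 1 as lower, of 291 PI3K-Akt genes 8 and 3, and of 240 actin cytoskeleton genes 7 and 0. ITGB8 and the locus overlapping ITGB3 are among the calls of each of the 4 terms. That locus met the filter on low counts through its shPUS1 libraries alone.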

How the data were processed

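Poly(A) RNA of 3 shControl and 3 shPUS1 libraries was sequenced. Per the labels, the authors used HISAT2 and HTSeq 0.6.1. The genome build, annotation, strandedness and treatment of multiply mapped reads are not given in the sources used here. The deposited table gives estimated counts for each gene, not normalized by the authors, of which 29.8% to 31.8% of those above 0 are not whole, and FPKM, made by the authors per kilobase and per library total, as deposited. HTSeq counts each read as a whole, so which tool made these estimated counts is not known from those sources. This bears on genes that share sequence, such as ITGB3 and ENSG00000259753. No library was pooled. The table lists 60605 genes, of which 58337 were matched by identifier to GENCODE release 29, an annotation of GRCh38. Start and end were identical for 74.7% of these, so the table's coordinates appear to be of GRCh38. The start and end of ITGAV, ITGA2, ITGA5, ITGA6, ITGB1 and ITGB3 differ from that release.

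Counts were rounded, filtered with filterByExpr (14748 genes, 99.85% to 99.89% of counts), scaled by TMM (factors 0.973 to 1.032) and compared in edgeR 4.0.16 (R 4.3.3) by its quasi-likelihood test, with Benjamini-Hochberg adjustment over all genes tested. The biological coefficient of variation was 0.22. A gene passed at an adjusted p under 0.05, and 95% intervals come from the same fit. A permutation test of single genes was exact and two-sided. DESeq2 1.42.0, limma 3.58.1 (voom, and log2(FPKM + 1) or log2(FPKM + 0.1) for genes averaging 1 FPKM or more, which ITGB8 did not), other scalings, other filters (none, or 5 CPM in 3 libraries), a replicate block and each library left out in turn served as alternatives. The sums of ITGB1 with ITGB1P1 and of ITGB3 with ENSG00000259753 were chosen after seeing the data. Shared sequence was counted as stretches of 100 bases that transcripts of another gene in GENCODE release 29 also hold. Upstream sequences came from RefSeq (GRCh38.p14) and were shown for at most 120 bases outside exons. Figures were drawn with matplotlib 3.10.9, and tables made with pandas 2.3.3, numpy 2.4.6 and scipy 1.17.1 in Python 3.11.15.

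The members and the lists were chosen with earlier results of these data known. Named were all 10 subunits, PUS1, the other subunits tested, the up to 3 genes of each list past the threshold or else the gene of smallest adjusted p, and the 3 genes most like the subunit of smallest p. FN1, TLN1, TGFB1 and TGFB3 were added for their role as partners, and FERMT1 and ENSG00000259753 after their values were seen. Replicate numbers were taken not to pair the libraries: after the group means were removed, same-numbered libraries correlated at -0.0529, -0.0256 and -0.19 across genes.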

Additional observations from a re-analysis of the deposited data

How the results depend on the processing

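Over all genes 380 passed as tested here, 1284 with no filter on low counts, 1910 with DESeq2, 250 with limma on log2(FPKM + 0.1), 18 with the replicate block, and 0 to 2813 with 1 library left out (2813 without shControl replicate 2, 11, 11 and 6 without shControl replicate 1 and shPUS1 replicates 1 and 2, 0 without shPUS1 replicate 3 by edgeR, where 2581 had an unadjusted p under 0.05). Of the 10 subunits 3 passed with no filter (ITGA2, ITGB3 and ITGB8), 3 with DESeq2 (ITGA2, ITGAV and ITGB8), 0 with the replicate block, 0 with either limma fit on FPKM, which had no value for ITGB8, and 0 to 5 with 1 library left out, against 1. Of the pathway genes 9, 13, 0 (block) and 0 to 18 passed, against 3. PUS1 was lower throughout but not past the threshold with voom (-1.57), limma on log2(FPKM + 1) (-1.001) and log2(FPKM + 0.1) (-1.48) and the block (-1.55), and ran from -1.86 to -1.20 with 1 library left out. The sign turned for ITGA3 (library totals -0.0038, upper quartile -0.0376, and -0.0774 to 0.0678 with 1 library left out), and with 1 library left out for ITGB5 (-0.122 to 0.0167), ITGAE (-0.49 to 0.0633) and ITGB2 (-0.161 to 0.469). With the replicate block, in libraries that share only a number, ITGB8 was at 2.79 on the log2 scale with adjusted p = 0.0916. ITGB8 passed in 11 of 16 alternatives and was higher in all 16. Those 16 include the sums of ITGB1 with ITGB1P1 and of ITGB3 with ENSG00000259753, which left the ITGB8 counts unchanged and so could hardly move it. The 16 also include the filter of 5 CPM in 3 libraries. ITGB8 met that filter through its shPUS1 libraries alone, so its pass there is no separate support. Values under an alternative were counted for the 10 subunits, the other subunits tested and the 3 genes most like ITGB8. FERMT2, TNS2, PLAUR, DAB2, EDIL3 and TGFB2 were counted as well, while PUS1, the markers and the genes added later were not. Of the values counted, 341 kept their direction and side of the threshold, 24 came past it, 36 no longer passed and 8 turned sign. The cause was not tested. The fits with those sums are counted here too, also for genes whose counts they left unchanged. ITGB8 rests on 10 to 29 counts in each shControl library.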
